A study of Mus musculus with 12 samples.

Results

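Fibroblast growth factor (FGF) ligands and receptors were compared along the length of the mouse cochlea. The 10 genes were the secreted ligands Fgf1, Fgf2, Fgf8 and Fgf10, the intracellular FGF homologous factors Fgf12, Fgf13 and Fgf14, and the receptors Fgfr1, Fgfr2 and Fgfr3. They were chosen by name: every non-control probe of an exon microarray whose gene name was one of these symbols was taken, which gave 89 of 165865 probes and 10 of 19505 genes. The mice were C57BL/6 males aged 6 weeks, with no treatment or engineered allele in any group. After removal of the otic capsule, each cochlea was cut into an apical, a middle and a basal turn, and every turn held lateral wall, organ of Corti and spiral ganglion. RNA of each sample, 25 ng, was hybridized to 1 single-color Agilent array, with 4 arrays for each turn and 12 in all. Each turn lay on a slide of its own, so slide and turn cannot be told apart. A turn is a mixture of cell types, and fewer cells of a type and less RNA per cell cannot be told apart either. P-values measure the spread between the 4 samples of a turn. The same mice supplied every turn, so samples of different turns are not independent. The comparisons of turns treated them as unpaired unless stated. The labels number the samples without saying whether the same number marks the same mouse.

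Secreted FGFs bind receptor tyrosine kinases on the cell surface together with heparan sulfate, and the bound receptor signals through the adaptor Frs2 to the MAP kinase pathway, whose targets include Sprouty proteins that dampen it. The intracellular factors are different: they lack a secretion signal, do not act through these receptors in the classical way and bind the tails of voltage-gated sodium channels in neurons. In the ear, Fgf10 acts in the growth of the otic vesicle, Fgf8 from inner hair cells and Fgfr3 in the neighbouring pillar cells act in shaping the organ of Corti, and Fgf20 through Fgfr1 acts in forming its sensory cells. Fgfr1, Fgfr2 and Fgfr3 each have a choice between 2 exons, IIIb and IIIc, for the second part of an immunoglobulin domain next to the membrane. That choice sets which ligands bind: the IIIb form of Fgfr2 binds Fgf10 and is typical of epithelia, and the IIIc form is typical of mesenchyme.

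Probes on this array are 60 bases long and each sits in 1 exon, so alternative exons are measured apart. The exon-level result reported here turned on the IIIb probe of Fgfr2, which is shown for that reason. It lies on the minus strand in build mm9, at chr7:137343289-137343348, and is listed for a single RefSeq transcript.
Fgfr2 IIIb exon: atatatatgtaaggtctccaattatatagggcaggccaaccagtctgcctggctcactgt

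The members are relatives, so the same stretch of the conserved core is shown for the 3 intracellular factors and Fgf10, because Fgf12 and Fgf10 gave clear signals there and the relatives Fgf13 and Fgf14 did not. Capitals mark bases that differ from the Fgf12 probe or have no aligned base in it. The Fgf13 probe shared 42 of 59 aligned bases with the Fgf12 probe, the Fgf14 probe 41 of 60 and the Fgf10 probe 35 of 60. They lie in mm9 at chr16:28372999-28373058 (Fgf12, minus strand), chrX:56379072-56379131 (Fgf13, minus strand), chr14:124531685-124531744 (Fgf14, minus strand) and chr13:119570357-119570416 (Fgf10, plus strand).
Fgf12 core exon: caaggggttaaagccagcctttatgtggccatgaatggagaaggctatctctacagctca
Fgf13 core exon: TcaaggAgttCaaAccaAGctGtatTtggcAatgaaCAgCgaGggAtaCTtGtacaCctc
Fgf14 core exon: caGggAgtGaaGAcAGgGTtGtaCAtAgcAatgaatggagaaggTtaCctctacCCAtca
Fgf10 core exon: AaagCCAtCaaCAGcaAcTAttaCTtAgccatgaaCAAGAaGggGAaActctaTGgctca

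Signals are background-subtracted fluorescence intensities, scaled so that the 75th percentile of every array was 641.3, and a gene's value is the average of its probes on the log2 scale. A gene passed the test in a comparison when its adjusted p was under 0.05 (limma over all 12 arrays, adjusted over 19505 genes), and it changed when the F test over the 3 turns passed and the means differed 2-fold or more. Spots well above background made up 77.4% to 81.4% of each array. The neuron markers set 1 array apart: their summed signal was 29453 on base replicate 3 against 7534 to 14266 on the other base arrays, 32794 to 42683 in the apex, and 30603 to 35096 in the middle turn apart from middle replicate 1 with 53533. For the genes that changed 2-fold or more, the differences are also given without base replicate 3. It was the highest basal array for each of these genes, so leaving it out had to enlarge their differences from the base. The cover of transcripts also moved with turn: over 5616 genes with 9 or more probes tested, the third of the probes nearest the 3′ end exceeded the third nearest the 5′ end by a median log2 of 0.88 to 0.97 on the apical arrays, 1.03 to 1.05 on the middle arrays and 1.05 to 1.14 on the basal arrays.

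The 2 changed members were Fgf10 and Fgf12, both higher in the apical and middle turns than in the base. Between apex and base, 6 of the 10 members passed the test, where 39.2% of all genes did. Fgf1, Fgf10, Fgf12 and Fgfr3 had the higher level in the apex (17.6% of all genes) and Fgfr1 and Fgfr2 in the base (21.6%). The changed members were 2 of 10, where 4.39% of all genes changed. The arrays of apex and base did not overlap for 7 of 10 members, where 38.3% of all genes had no overlap. Between middle and base, 5 members passed (background 20.9%), the same 2 changed (background 2.66%), and 6 had no overlap (background 24.1%). Between apex and middle, no member passed limma's test or changed, where 12% of all genes passed and 0.436% changed, although the arrays of those turns did not overlap for 1 member, Fgfr3 (20.8% of all genes).

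**Figure D1:**
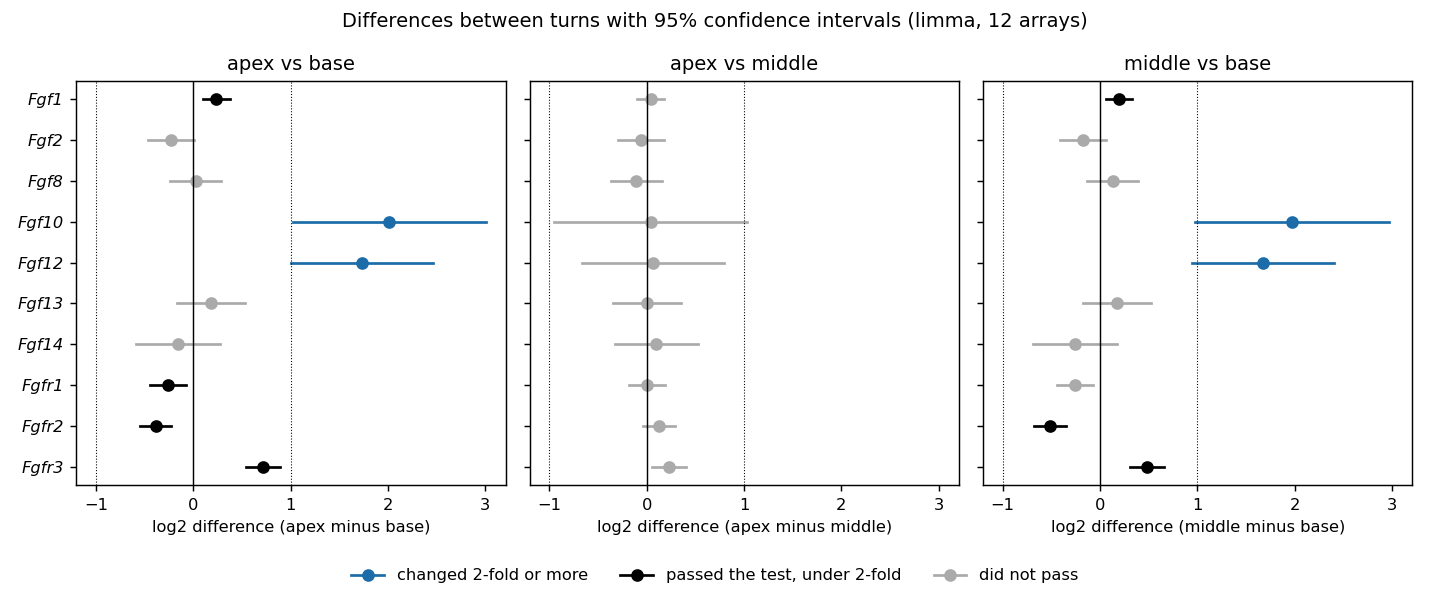
Log2 difference (x axis) between the mean of the first and the second named turn for each of the 10 members, with 95% confidence intervals from limma over 12 arrays and dotted lines at a 2-fold difference. Fgf10 (2.02) and Fgf12 (1.74) lie beyond the dotted line in apex vs base, and no member does in apex vs middle.

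Fgf10, a secreted ligand of the IIIb form of Fgfr2, was higher in the apex and the middle turn than at the base. Its signals were 537, 399.5, 476 and 447 on the 4 apical arrays. On the middle arrays they were 760, 364, 397 and 370. On the basal arrays they were 131, 53.2, 310.2 and 78.9. Every apical and middle array was above every basal array, with middle replicate 1 the highest of all 12 and base replicate 3 the nearest to the other turns. The apex exceeded the base 4.04-fold (log2 difference 2.02, SE 0.45, adjusted p = 0.00442) and the middle turn exceeded it 3.93-fold (1.97, SE 0.45, adjusted p = 0.0117). Apex and middle differed by 0.04 (95% confidence interval -0.95 to 1.04, adjusted p = 0.962). Without base replicate 3 the apex to base difference was 2.50 (adjusted p = 2.04e-04) and the middle to base difference 2.45 (adjusted p = 5.25e-04). With middle replicate 1 also left out, the middle to base difference was 2.20 (adjusted p = 6.74e-04). With normexp background correction of all 12 arrays the apex to base and middle to base differences were smaller, 1.29 (adjusted p = 0.00244) and 1.3 (adjusted p = 0.00638). All 3 Fgf10 probes showed it, with 2.25, 2.10 and 1.70 from the 5′ to the 3′ end. The first of them was well above background on 9 of 12 arrays, so its basal level is partly a floor.

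**Figure D2:**
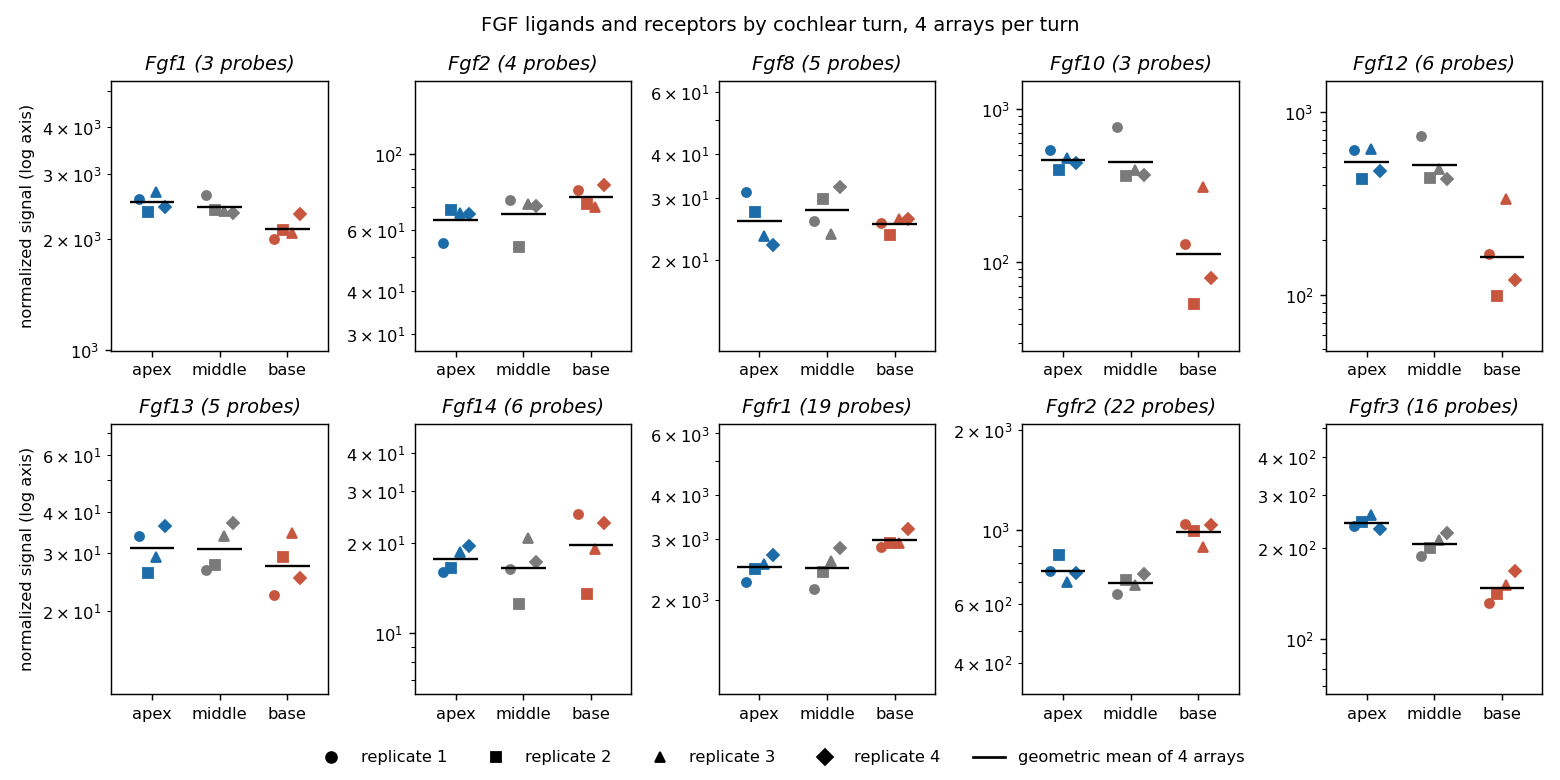
Normalized signal (log axis, a separate range in each panel) of the 10 members on every array, by turn, with bars at the geometric mean of 4 arrays. The basal Fgf10 arrays run from 53.2 to 310.2 and the apical ones from 399.5 to 537.

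Neuron markers moved with Fgf10 across the arrays. Of the 15 fixed markers of spiral ganglion neurons, all with a probe well above background, 10 exceeded the base 2-fold or more in the apex, and Prph, an intermediate filament gene of a minority of these neurons, was lower. The median log2 difference of the list was 1.34, against -0.04 over all genes. The markers were unequal: the neurofilament genes Nefl, Nefm and Nefh differed by 1.80, 2.00 and 2.01 and the synaptic vesicle gene Syt1 by 2.46, beside 2.02 for Fgf10, while Rbfox3, Mapt and Gap43 stood at 0.13, 0.26 and 0.33 and did not pass. Between middle and base, 12 of the 15 markers passed with the middle turn higher. Of all genes, 4.39% changed between apex and base and 20.9% passed between middle and base, each in either direction. The part of these neurons in the Fgf10 result was not tested. Hair cell markers were also lower in the base, with 10 of 11 passing the test, where 17.6% of all genes passed with the apex higher. Their summed signal was 16443 to 20819 in the apex and 5178 to 7679 in the base. Of 10 markers of Schwann cells and satellite glia, 8 passed with the apex above the base and 1 the other way (median log2 difference 0.70), and 8 were higher in middle than base. The summed signal of that list ran the other way, from 221651 to 253486 in the apex and from 334657 to 362693 in the base. The brightest of these markers by far was S100b, the 1 marker higher in the base, at 17.74 in the apex and 18.35 in the base (log2). The mean log2 signal of the list was 10.95 to 11.10 in the apex and 10.17 to 10.87 in the base.

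**Figure D3:**
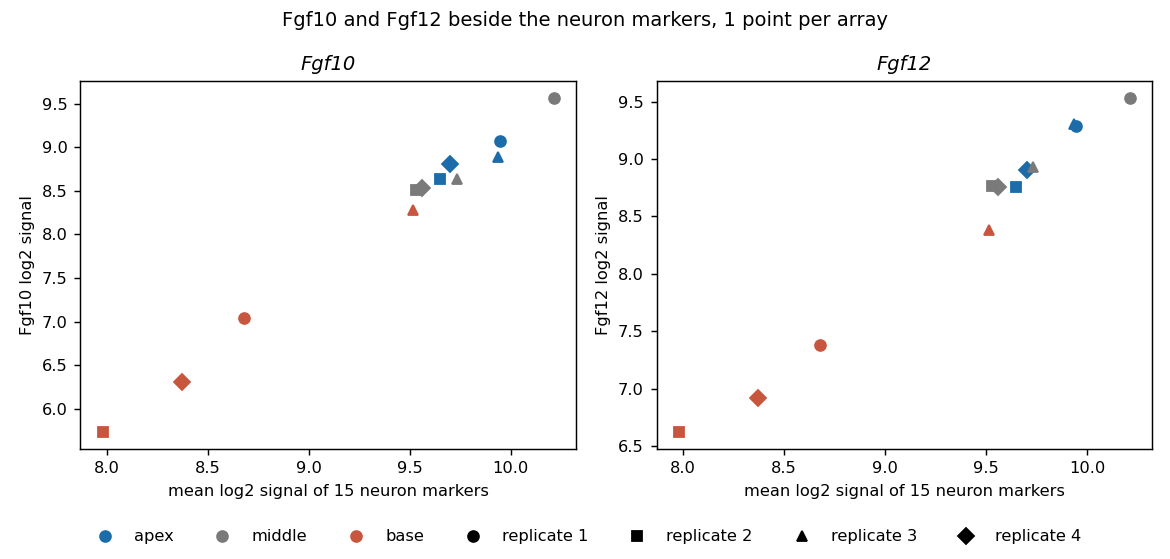
Log2 signal of Fgf10 (left) and Fgf12 (right) on each of the 12 arrays against the mean log2 signal of 15 neuron markers on the same array. Base replicate 3 lies close to the middle arrays on both axes (marker mean 9.51), and the 3 other basal arrays lie lowest (7.98 to 8.68).

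Fgf1, a secreted ligand that binds all the receptors, had an apical level 1.18 times that of the base. It measured 2569, 2367, 2668 and 2432 in the apex. In the middle turn it measured 2619, 2400, 2382 and 2354. In the base it measured 1994, 2115, 2078 and 2333. All apical arrays and all middle arrays were above all basal arrays, the closest pair being only slightly apart. The apex to base difference was 0.24 (SE 0.06, adjusted p = 0.011) and the middle to base difference 0.20 (SE 0.06, adjusted p = 0.0475), a call that was lost in 16 of 25 alternative analyses. The 3 probes were unequal: 0.42 at the 5′ end (adjusted p = 0.00359), 0.24 in the middle and 0.05 at the 3′ end (adjusted p = 0.64). Relative to the other Fgf1 probes, the first exceeded them by 0.27 (adjusted p = 0.00571) and the last fell short, at -0.28 (adjusted p = 0.0387). Over the genes with 9 or more probes, the 3′ probes minus the 5′ probes also differed between apex and base, by a median of -0.17. The part of this shift in the Fgf1 probe differences was not tested. Scaling to the spike-in probes turned the gene's sign (-0.25, adjusted p = 0.0422), with the median of all genes at -0.52. Both scalings multiply an array by a constant and shift every gene equally. The distance of Fgf1 from that median, 0.27, is therefore the same under both by construction and does not test the call.

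Fgf2, a secreted ligand without a classical signal peptide, did not pass the test in any comparison with the scaling used here. Its signals ran from 55.1 to 68.7 in the apex, from 53.6 to 73.1 in the middle turn and from 69.9 to 81.1 in the base. The apical arrays lay below the basal ones without overlap, but the difference of -0.23 had an interval of -0.46 to 0.01 (adjusted p = 0.125), and it passed in 4 of 25 alternative analyses, among them quantile normalization (-0.42, adjusted p = 0.00642), scaling to the median (-0.34, adjusted p = 0.0204) and scaling to the spike-in probes (-0.71, adjusted p = 9.51e-04). Of its 4 probes, the 2 nearest the 3′ end were well above background on all arrays, and their own differences were 0.06 and 0.02.

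Fgf8, known from inner hair cells, was close to the background in every turn. Only the probe nearest the 5′ end, of 5, was well above background on all 12 arrays, and its mean signals in apex, middle and base were 407, 397 and 414. That probe is 78.3% G and C. Of the others, 3 were not well above background on any array. At gene level the apex to base difference was 0.03 (interval -0.23 to 0.29, adjusted p = 0.89). With scaling to the spike-in probes it was -0.46 (adjusted p = 3.90e-04) and the apex to middle difference -0.32 (adjusted p = 0.0139), and both passed. The medians of all genes were then -0.52 and -0.28.

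Fgf12, an intracellular factor that binds sodium channels, followed the same arrays as Fgf10. Its signals were 624, 431, 631 and 479 in the apex. They were 742, 435, 489 and 432 in the middle turn. They were 167, 98.5, 333 and 121 in the base. No basal array reached the lowest apical or middle array, and base replicate 3 was again the highest of its turn. The apex was 3.33-fold above the base (log2 difference 1.74, SE 0.33, adjusted p = 0.00174) and the middle turn 3.19-fold (1.67, SE 0.33, adjusted p = 0.00614), while apex and middle differed by 0.06 (interval -0.67 to 0.79, adjusted p = 0.92). Leaving out base replicate 3 gave 2.09 for apex against base (adjusted p = 1.04e-04) and 2.02 for middle against base (adjusted p = 3.05e-04). With middle replicate 1 also left out, middle against base was 1.85 (adjusted p = 4.52e-04). The neuron and glial markers that moved with Fgf10 moved with Fgf12 too, and their part in the Fgf12 difference was not tested.

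The probes of Fgf12 also told its first exons apart. One first-exon probe was well above background on all 12 arrays and went with the rest of the gene, with an apex to base difference of 2.03 (adjusted p = 0.00267). The other, at chr16:28445079-28445138 in mm9 on the minus strand, is listed for 1 RefSeq transcript and was not well above background on any array, with mean signals of 11.3 in the apex and 5.72 in the base. Its sequence is shown because no other Fgf12 probe behaved so.
Fgf12 long-form first exon: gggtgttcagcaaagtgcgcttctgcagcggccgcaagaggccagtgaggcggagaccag

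The 4 probes shared by the Fgf12 transcripts gave differences of 2.01, 1.97, 1.90 and 1.82 from the 5′ to the 3′ end, and none differed from the others in the exon-level test.

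Fgf13, a relative of Fgf12 on the X chromosome, was dim in all turns and did not pass the test. Its signals ran from 26.0 to 36.4 in the apex, 26.6 to 37.1 in the middle turn and 22.3 to 34.6 in the base. Of 5 probes, none was well above background on all 12 arrays, and the first exon probe was on none. The apex to base difference was 0.18 (interval -0.17 to 0.53, adjusted p = 0.423).

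Fgf14, another intracellular factor and the gene of an inherited ataxia, was also near the background. Its signals ran from 16.1 to 19.6 in the apex, 12.5 to 20.8 in the middle turn and 13.5 to 25.0 in the base. Only the probe nearest the 3′ end, of 6, was well above background on all arrays (90.1, 100.3 and 95.1 on average in apex, middle and base), and neither first-exon probe was on any. The gene-level difference of apex from base was -0.16 (interval -0.58 to 0.27, adjusted p = 0.595). With scaling to the spike-in probes it was -0.64 and passed (adjusted p = 0.0186), where the median of all genes was -0.52. The remaining intracellular factor, Fgf11, differed by 0.05 between apex and base and did not pass.

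Fgfr3, the receptor of pillar and Deiters' cells, was higher in the apex and the middle turn than at the base. It measured 237, 243, 256 and 231 in the apex. The middle arrays gave 189, 200.2, 213 and 224. The basal arrays gave 132, 141, 151 and 168. None of the 3 turns overlapped another. The apex was 1.64-fold above the base (log2 difference 0.72, SE 0.08, adjusted p = 5.7e-05) and the middle turn 1.40-fold (0.48, SE 0.08, adjusted p = 0.00228). The apex exceeded the middle turn by 0.23 (interval 0.06 to 0.41), which did not pass after adjustment (adjusted p = 0.0791). When the arrays were scaled to the spike-in probes the apex to base difference was 0.23 and did not pass (adjusted p = 0.079). Its distance from the median of all genes, 0.75, cannot differ between these scalings, which shift every gene equally.

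All 16 Fgfr3 probes were higher in the apex, by 0.03 to 1.18. The probes differed among themselves: 7 of the 16 departed from the others in the exon-level test. Probe 5 of 16, counted from the 5′ end, hardly differed between apex and base (0.03, or -0.73 relative to the other probes, adjusted p = 0.00101). Probes 7 and 13 were also lower than the rest, by -0.61 (adjusted p = 0.0024) and -0.39 (adjusted p = 0.00415) in relative terms. All 3 are listed for 4 RefSeq transcripts, and none of the 3 is next to another. Markers of supporting cells moved with Fgfr3 only in part: of 11 measured, 6 passed toward the apex and 2 toward the base (17.6% and 21.6% of all genes). Their summed signal was lower in the apex (91001 to 107204) than in the base (126969 to 152784). Their mean log2 signal went the opposite way, with 8.69 to 8.87 in the apex, 8.68 to 8.88 in the middle turn and 8.03 to 8.50 in the base. The brightest of them by far was the gap junction gene Gjb2, at 16.58 in the apex and 17.10 in the base on the log2 scale. The part of these cells in the Fgfr3 difference was not tested.

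Fgfr2, the receptor whose IIIb form takes Fgf10, was highest in the base. The apical arrays gave 753, 842, 698 and 742. The middle arrays gave 645, 708, 687 and 738. The basal arrays gave 1042, 996, 891 and 1040.2. All basal arrays were above all others, and apex and middle overlapped. The base exceeded the apex 1.31-fold (log2 apex minus base -0.39, SE 0.07, adjusted p = 0.00165) and the middle turn 1.43-fold (-0.51, SE 0.07, adjusted p = 0.00103). Of 22 probes, 20 were higher in the base than in the apex.

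Fgfr1, the receptor of the sensory epithelium and of many mesenchymal cells, was also higher in the base. The apical arrays read 2251, 2453, 2548 and 2697. The middle arrays read 2159, 2415, 2584 and 2816. The basal arrays read 2847, 2923, 2916 and 3188. The lowest basal array was just above the highest of the other turns. The base was 1.19-fold above the apex (-0.26, SE 0.08, adjusted p = 0.031), while the difference from the middle turn, -0.26, missed the threshold (adjusted p = 0.0516) but passed it in 10 of 25 alternative analyses (lowest adjusted p = 0.00713). The apex to base call for Fgfr1 was lost in 6 of 25 alternative analyses, among them quantile normalization (-0.10, adjusted p = 0.304) and the fits without apex replicate 1 or 2 or base replicate 2 or 4 (adjusted p up to 0.0904). All 19 probes were higher in the base, by 0.03 to 0.44.

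Markers of several cell types were higher in the base too. Of 8 markers of spiral ligament fibrocytes, 7 were higher in the base than in the apex, and Otor was higher in the apex (0.60, adjusted p = 0.0087). Of all genes, 21.6% passed with the base higher and 17.6% with the apex higher. The summed signal of the 8 was 294672 to 325356 in the apex and 553816 to 617464 in the base. The brightest of them was Otos, at 17.21 in the apex and 18.49 in the base (log2), which also had the largest difference (-1.28). The mean log2 signal of the list was 13.33 to 13.53 in the apex and 13.73 to 13.87 in the base. Of 10 stria vascularis markers 9 were higher in the base (summed signal 41396 to 47282 in the apex and 61153 to 80404 in the base), and of 10 macrophage markers 8 (6399.7 to 9462 and 9306 to 11439). Between middle and base, where Fgfr2 passed, 5 of the fibrocyte, 2 of the stria and 7 of the macrophage markers passed with the base higher. Of all genes, 20.9% passed in that comparison in either direction, close to the 2 of 10 stria markers. Otor passed there with the middle turn higher (0.64). Between apex and middle, where neither receptor passed, 7 of the stria and 3 of the fibrocyte markers were lower in the apex. There 12% of all genes passed in either direction. Of 12 bone markers, the tissue removed with the otic capsule, 2 were higher in the base and 1 in the apex, with a median log2 difference of 0.18. Their summed signal was 42259.6 to 56575 in the apex and 68449 to 77340.2 in the base. The brightest of them by far was Spp1, at 15.34 in the apex and 16.06 in the base (log2). The mean log2 signal of the bone list overlapped, with 7.89 to 9.55 in the apex and 8.17 to 8.83 in the base. The part of these cells in the receptor differences was not tested.

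Along both genes the difference grew toward the 3′ end, as the plot of probe differences shows. In Fgfr2, the probes nearest the 5′ end that were above background differed by -0.01, -0.29 and -0.11, and the last 3 by -0.73, -0.62 and -0.80. In Fgfr1, the first 3 probes differed by -0.14, -0.09 and -0.03, and probes 16 to 18 of 19 by -0.39, -0.44 and -0.42, while the last probe stood at -0.16. Taken as the mean of the 3′ probes minus that of the 5′ probes, as above, the apex to base difference was -0.40 for Fgfr2 (SE 0.06, adjusted p = 5.48e-04) and -0.21 for Fgfr1 (SE 0.05, adjusted p = 0.0029), against a median of -0.17 over the 5616 genes, of which 49.9% passed the same test. Of those genes, 8.87% lay below Fgfr2, 39.7% below Fgfr1 and 92.4% below Fgfr3, whose value was 0.12 (adjusted p = 0.266). The part of this 3′ excess in the gene-level differences of Fgfr1 and Fgfr2 was not tested.

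**Figure D4:**
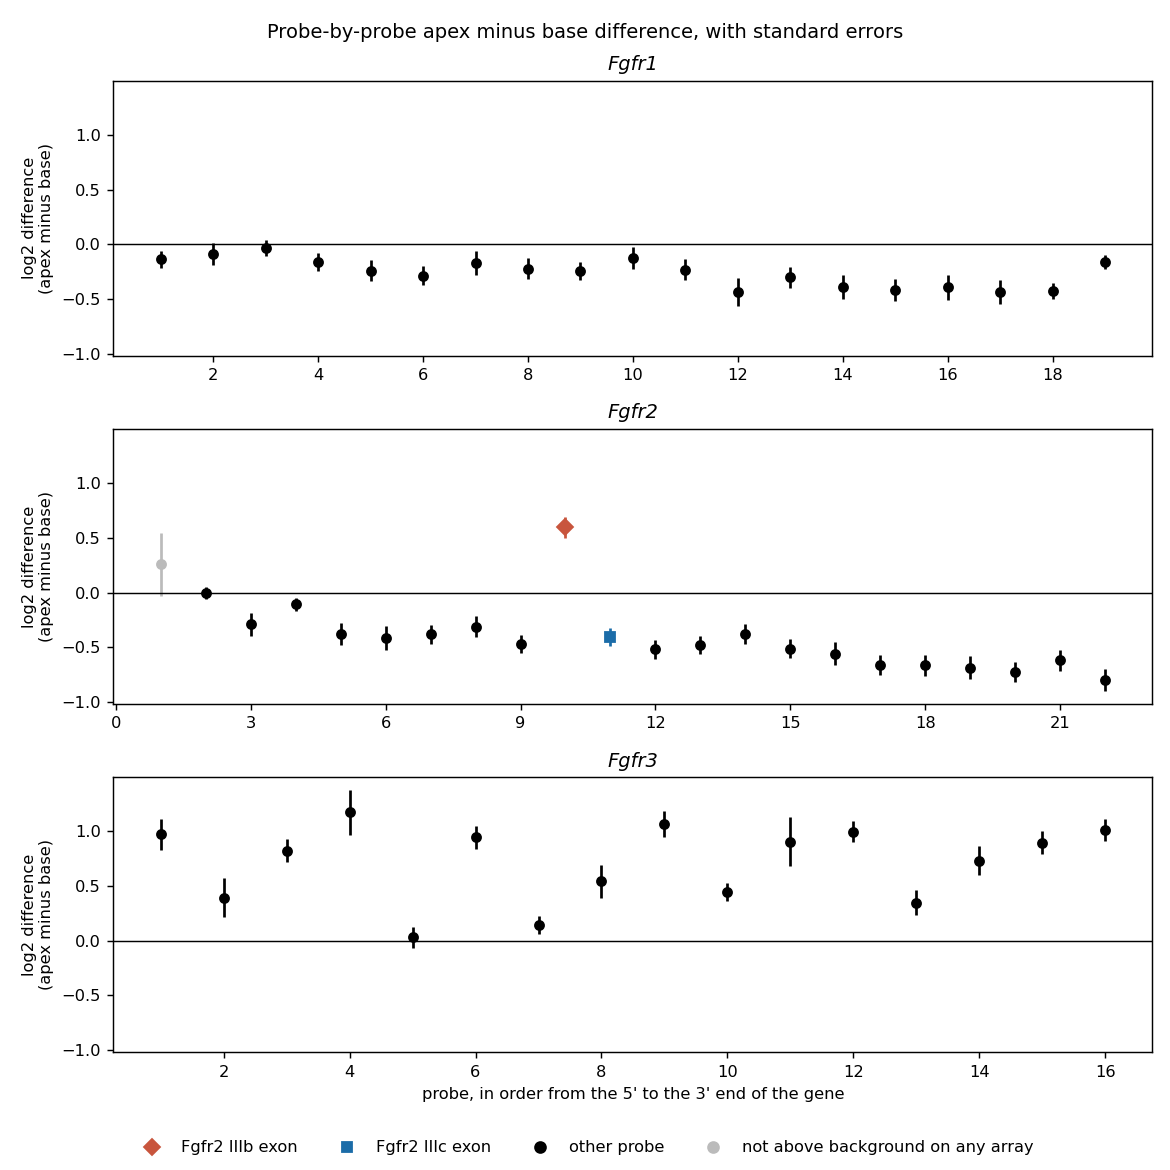
Log2 apex minus base difference with its standard error (limma) for each probe of Fgfr1, Fgfr2 and Fgfr3, in order from the 5′ to the 3′ end. The IIIb probe of Fgfr2 stands at 0.60 between neighbours at -0.47 and -0.41, and the Fgfr3 probes spread from 0.03 to 1.18.

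The IIIb exon of Fgfr2 went the other way from the rest of the gene. Its probe, the 10th of 22, was higher in the apex. Its signals were 208, 206, 176 and 170.0 on the apical arrays. They were 107.2, 128, 129 and 122 on the middle arrays and 121, 132, 112 and 138 on the basal ones. All apical arrays were above all middle and basal arrays, and middle and base overlapped. The IIIc probe, next in order, gave 2422, 2763, 2549.5 and 2751 on apical arrays, 2332, 2569.9, 2711 and 3051 on middle arrays, and 3598, 3518, 3228 and 3548 on basal arrays. Here the basal arrays were the highest, as for the gene as a whole.

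Taken alone, the IIIb probe exceeded its basal level by 0.60 in the apex on the log2 scale (SE 0.10, adjusted p = 0.00104 over all probes) and its middle level by 0.64 (adjusted p = 0.0067), and the IIIc probe was -0.41 (adjusted p = 0.0042) and -0.02 (adjusted p = 0.914) in the same comparisons. Relative to the mean of the other Fgfr2 probes, the IIIb probe was 1.07 higher in apex than base (SE 0.07, adjusted p = 1.15e-05), 0.54 higher than in the middle turn (adjusted p = 0.01), and 0.53 higher in middle than base (adjusted p = 0.00434). The neighbouring probes 9 and 11, the second being IIIc, departed from the other Fgfr2 probes by -0.06 (adjusted p = 0.498) and 0.01 (adjusted p = 0.92) between apex and base. The log2 distance of IIIb from IIIc was -4.02 to -3.54 on the apical arrays, -4.64 to -4.33 on the middle arrays and -4.90 to -4.69 on the basal arrays, so that no turns overlapped. Only the shift between turns can be read from it, since the levels of different probes are not comparable. The 2 probes that only the IIIc transcript lists further upstream (probes 5 and 6) were -0.38 and -0.41 in the apex to base comparison, like their neighbours. The call of IIIb against the other probes between apex and base held in all 18 alternatives, with differences from 0.84 to 1.12, and that between apex and middle in 17 of 18 (0.52, adjusted p = 0.0504 with base replicate 3 and middle replicate 1 both left out).

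**Figure D5:**
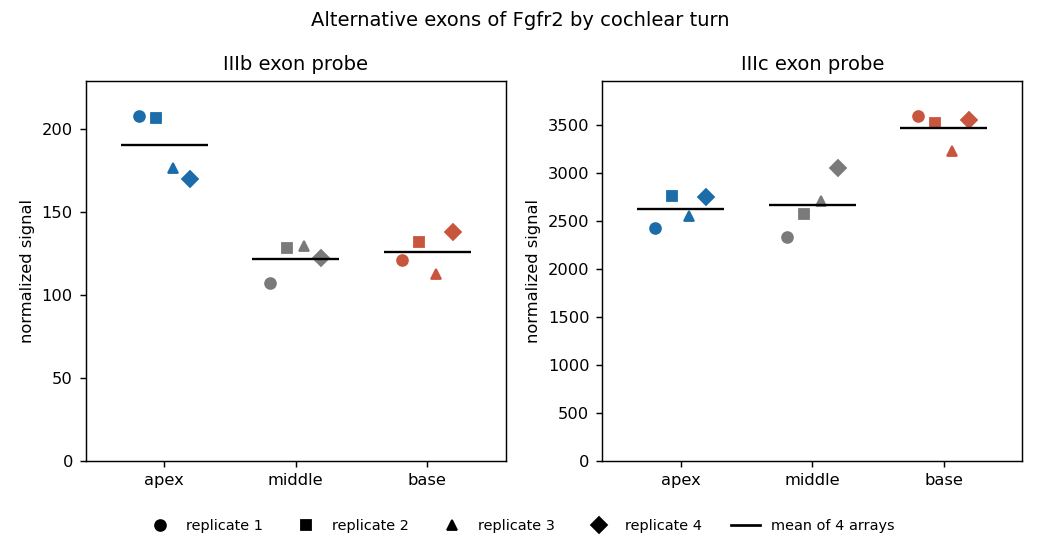
Normalized signal (linear axes from 0, a separate range in each panel) of the IIIb and IIIc exon probes of Fgfr2 on every array, by turn, with bars at the mean of 4 arrays. The apical IIIb signals, 170.0 to 208, are all above the middle and basal ones, 107.2 to 138, and the basal IIIc signals, 3228 to 3598, are the highest of that probe.

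Over all members, 73 probes of 8 members with enough probes above background entered the exon-level test, and 26 departed from the other probes of their gene between apex and base, where 16.4% of all 125426 tested probes did. The counts were 9 for Fgfr2, 7 for Fgfr1, 7 for Fgfr3, 2 for Fgf1 and 1 for Fgf10, whose 3′ probe was lower by -0.47 (adjusted p = 0.0189). In Fgfr2, after IIIb, the clearest were probe 20 (-0.32, adjusted p = 0.00295) and probe 22 (-0.40, adjusted p = 0.0031), both near the 3′ end. In Fgfr1 they were probe 3 (0.24, adjusted p = 0.00713), probe 17 (-0.19, adjusted p = 0.0197) and probe 18 (-0.18, adjusted p = 0.0216). Between apex and middle 2 probes departed (background 0.833%), IIIb and the 5′ probe of Fgf1 (0.25, adjusted p = 0.0482). Between middle and base 6 did (background 1.96%). Probes of 1 gene share the array and the gene's mean and are not independent. The part of the 3′ shift over all genes in these departures, that of Fgf10 among them, was not tested.

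Among the other secreted FGF ligands, 10 of 14 had a probe well above background, and 2 of the 14 passed with the higher level in the apex and none with the base higher, where 17.6% and 21.6% of all genes did. Fgf18, a ligand of skeletal and mesenchymal development, changed: its middle turn was 2.07-fold above the base (log2 difference 1.05, SE 0.24, adjusted p = 0.0111), and its apex 1.98-fold (0.98, adjusted p = 0.00669). Its signals were 1387, 1124, 1314 and 1201 on apical arrays, 1749, 1121, 1260 and 1199 on middle arrays and 613, 455, 1094 and 529 on basal arrays, so base replicate 3 stood apart from its turn here too. Without it the middle turn was 2.48-fold above the base (1.31, adjusted p = 3.45e-04) and the apex 2.37-fold (1.25, adjusted p = 1.81e-04). The second, Fgf5, had no probe well above background. Fgf9, which acts in the otic mesenchyme, differed by -0.11 between apex and base (adjusted p = 0.248). Fgf20 had no probe well above background and stood at 5.91 to 10.4 on all arrays.

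The list of sodium channel partners held the channel subunits Scn1a, Scn2a1, Scn3a, Scn8a and Scn9a, and also Ank3 and Nfasc, which are not channel subunits. All 7 genes passed in the direction of Fgf12, where 17.6% of all genes were higher in the apex. Their median log2 difference between apex and base was 0.68, against -0.04 over all genes. The 2 that changed were the channel subunits Scn1a and Scn8a. Scn1a measured 319, 231, 309 and 266 in the apex against 81.3, 46.8, 185 and 53.8 in the base, 3.56-fold (1.83, SE 0.38, adjusted p = 0.00281). Scn8a measured 271, 226, 301 and 242 in the apex against 86.9, 50.5, 166 and 64.9 in the base, 3.12-fold (1.64, SE 0.33, adjusted p = 0.0022). In both, base replicate 3 was the highest basal array, as it was for the neuron markers, and without it the apex to base differences were 2.24 for Scn1a (adjusted p = 1.14e-04) and 1.97 for Scn8a (adjusted p = 1.63e-04). The subunits Scn2a1, Scn3a and Scn9a were dim: the highest signal on any array was 29.6, and 3 of 24, 5 of 23 and 2 of 23 probes were well above background on all 12.

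Of 14 other receptors, co-receptors and FGF-binding proteins, 6 were higher in the apex, 2 in the base and 6 did not pass, and none changed 2-fold. The apex was higher for 17.6% of all genes and the base for 21.6%. The list median was 0.15. All 3 Flrt genes, whose membrane proteins bind FGF receptors, were higher in the apex: Flrt1 by 0.71, Flrt2 by 0.86 and Flrt3 by 0.81 (adjusted p = 2.05e-05, 2.61e-05 and 6.22e-04). Each of these 3 genes rests on 1 probe. Fgfrl1, a receptor without a kinase domain, was higher in the base (-0.44, adjusted p = 9.8e-04). Of 10 signal transducers, 2 passed toward the apex and 4 toward the base, beside the same shares of all genes, and the largest of these differences was that of the adaptor Shc1 (-0.36, adjusted p = 0.00273).

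Of 12 targets and feedback inhibitors, 2 were higher in the apex, 1 in the base and 9 did not pass, where 17.6% and 21.6% of all genes were higher in apex and base, and the list median was -0.08. Il17rd, a membrane inhibitor of FGF signaling, measured 361, 356, 379 and 347 in the apex and 204, 183, 188 and 169.8 in the base (1.94-fold, log2 difference 0.96, SE 0.06, adjusted p = 1.81e-06). Spry2, a Sprouty inhibitor, was higher in the apex as well (267, 282, 185 and 235 against 135, 112, 133 and 156; 0.85, SE 0.14, adjusted p = 5.85e-04). Spry4 went the other way (109, 95.9, 89.7 and 112 in the apex against 157, 187, 187 and 168 in the base; -0.78, SE 0.12, adjusted p = 3.55e-04). Each Sprouty gene rests on 1 probe. Spry1, the phosphatase Dusp6 and the transcription factors Etv4 and Etv5 gave -0.10, -0.08, -0.39 and 0.10, and none passed.

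The genes most like Fgf10 over the 12 arrays, among 16502 genes with a probe well above background, were Ugt8a (Pearson r 0.999), Ncs1 (0.998) and Cadm3 (0.998), all computed across 12 arrays on the log2 scale. For Fgf12 they were Syt7, Iqsec3 and Mapk10 (0.997 each). All 6 passed with the apex above the base, by 1.19 to 1.72. The points of each correlation share the turns and the arrays that stand apart.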

How the data were processed

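RNA of 12 samples, 4 for each cochlear turn, was read on single-color exon arrays. The authors read the scanned images with Agilent Feature Extraction 10.7.3.1, and the deposited intensity of a spot is its detrended, background-subtracted signal, with no scaling between arrays. Other deposited columns hold 0 or 1 flags and the mean and background intensity. Probe positions are those of mm9 in the deposited files. Spots flagged as outliers on any array were left out (622 spots, and with them 119 probes). Signals were divided by the 75th percentile of their array, log2 was taken, spots were averaged per probe and probes per gene. Turns were compared with limma 3.58.1 in R 4.3.3, on all 12 arrays, with Benjamini-Hochberg adjustment over 19505 genes. At the exon level, each probe was set against the mean of the gene's other probes, over 125426 probes that were detected above background throughout 1 or more turns, in genes with 3 or more such probes. These steps were tested on simulated data. The number of arrays limits the precision. The 10 genes and all gene lists were chosen with earlier results of these data known. The text names all 10 members, pathway genes that changed 2-fold or more, 9 further pathway genes fixed by name, up to 3 probes of a member by p, and the 3 genes most correlated with each changed member. Other pathway genes were named after their values were seen. Alternatives covered scaling, background correction, probe summary, filters, tests and single arrays left out. The sequences are those of the array's probes, as the deposited files give them. The sequences of Fgf1 and of 1 Fgfr2 exon are not reported here.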

Additional observations from a re-analysis of the deposited data

Results flagged for a closer look

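In 4 of the 66 groups of 4 arrays tested, 1 array lay far from the other 3, by Dixon's ratio of its gap to the range, and chance flags about 1 group in 20. Fgf10 on middle replicate 1 was 760 against 364 to 397 on the other middle arrays (ratio 0.881), the array on which the neuron markers were also highest. Fgf9 on the same array was 2038 against 1774 to 1794 (0.919). Fgf2 was lowest on apex replicate 1, with 55.1 against 66.8 to 68.7 (0.871), and on middle replicate 2, with 53.6 against 70.3 to 73.1 (0.876).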

How the results depend on the processing

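The calls of Fgf10, Fgf12 and Fgfr2 in apex against base and in middle against base held in all 25 alternatives, Fgfr3 in apex against base in 24 and Fgf1 in 22. The count of members changed 2-fold or more moved only without the fold limit, to 6 in apex against base and 5 in middle against base, and the pathway count of 2 then rose to 26. That pathway count was 4 with the spike-in scaling, 6 with the median of the probe values and 4 with only probes well above background. The log2 differences that turned sign are given here, and the cause was not tested. Quantile normalization gave Fgf8 -0.082 and Fgf13 -0.056 in apex against base, Fgf13 -0.040 in apex against middle, and Fgf8 -0.024 and Fgf13 -0.017 in middle against base. Scaling to the median gave Fgf8 -0.091 in apex against base, and Fgf1 -0.012, Fgf10 -0.011, Fgf13 -0.047 and Fgfr1 -0.053 in apex against middle. Scaling to the spike-in probes, which moved the median of all genes to -0.52, -0.28 and -0.23 in the 3 comparisons, gave Fgf1 -0.25, Fgf8 -0.46 and Fgf13 -0.31 in apex against base, Fgf1 -0.17, Fgf10 -0.17, Fgf12 -0.15, Fgf13 -0.21, Fgf14 -0.12, Fgfr1 -0.22 and Fgfr2 -0.090 in apex against middle, and Fgf1 -0.075, Fgf8 -0.14 and Fgf13 -0.10 in middle against base. Normexp background correction gave Fgf13 -0.0060 in apex against base, and Fgf10 -0.0062, Fgf13 -0.083 and Fgf14 -0.077 in apex against middle. With 16 added to each signal Fgfr1 stood at -0.00032 in apex against middle. The mean linear probe signal gave Fgf8 -0.019 in apex against base, Fgf1 -0.13, Fgf2 0.12, Fgf8 0.018, Fgf10 -0.036 and Fgfr1 -0.052 in apex against middle, and Fgf8 -0.037 in middle against base. The median of the probe values gave Fgf8 -0.32 in apex against base, Fgf13 -0.087 in apex against middle, and Fgf8 -0.035 in middle against base. The use of only probes well above background gave Fgf8 -0.027 and Fgf13 -0.050 in apex against base, Fgf2 0.037, Fgf8 0.033 and Fgf14 -0.17 in apex against middle, and Fgf8 -0.060, Fgf13 -0.11 and Fgf14 0.086 in middle against base. Leaving out both base replicate 3 and middle replicate 1, an alternative added after seeing the data, gave Fgf13 -0.067 and Fgfr1 -0.067 in apex against middle.

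Single arrays left out gave -0.067 to 0.10 for Fgf8 in apex against base and, in apex against middle, -0.16 to 0.018 for Fgf2, -0.059 to 0.30 for Fgf10, -0.017 to 0.24 for Fgf12, -0.069 to 0.093 for Fgf13, -0.032 to 0.21 for Fgf14 and -0.067 to 0.061 for Fgfr1. Of the exon-level counts, member probes that departed in apex against base numbered 17 to 26 with single arrays left out, with 17 without apex replicate 1 and without base replicate 2. In apex against middle the 2 probes and 2 members became 1 probe and 1 member with any array left out, under quantile normalization, with no filter on dim probes and with the replicate block, and 0 and 0 by limma with base replicate 3 and middle replicate 1 both left out, where the IIIb difference was 0.52 (adjusted p = 0.0504). Normexp gave 10 probes in middle against base. Members with such a probe in apex against base numbered 3 under quantile normalization and 3 by diffSplice, which gave 1 in apex against middle.

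Same-numbered samples correlated at -0.04 to 0.23 in their deviations from the turn means. Differently numbered samples were not set beside them, so these values cannot show whether the numbers mark pairs. The main fit took no pairs, although the same mice supplied every turn. With the number as a replicate block, Fgfr3 passed in apex against middle (0.23, adjusted p = 0.0448), Fgfr1 passed in middle against base (adjusted p = 0.00713) and Fgf1 did not (adjusted p = 0.0691). The series value table equals the scanner signals at all 180880 spots, so that alternative gave no other values. Fgf8, Fgf13 and Fgf14 rest on signals close to background. Distances of members from the mean of a marker list were added after seeing the data and compared between apex and base by exact tests. They are not given, because the neuron markers moved unequally (-0.34 to 2.46 in apex against base) and 1 apical array set the bone markers apart. For that reason they do not test the part of a cell type.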
